A study of Mus musculus with 8 samples.

Results

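The genes of MHC class II antigen presentation were followed across 8 microarrays of mouse small intestine. The 10 genes were chosen by function: the class II chains H2-Aa, H2-Ab1 and H2-Eb1, the invariant chain Cd74, the peptide editor genes H2-DMa, H2-DMb1 and H2-DMb2, the editing inhibitor genes H2-Oa and H2-Ob, and the transactivator Ciita. They were found through the accessions of 12 of the 39429 probes. Of the 10 genes, 9 passed the filter on dim probes and stand among the 21319 genes tested, and H2-DMb2 did not. All arrays held total RNA of C57BL/6J Min/+ mice, which carry a truncating Apc mutation in the germ line and develop intestinal adenomas, so control mice carried it too. The 4 groups of 2 arrays were Western-diet females, Western-diet males, control females and control males. The Western-type diet was a modified AIN-93G formula, high in fat and low in fiber, vitamin D, calcium and folate, in which milk supplied 66.4% of the fat and plant oils 33.6%, and the control diet was unmodified semisynthetic AIN-93G. Feeding is given as 18 months, the age of the mice is not stated, each array held RNA of 1 to 3 mice, and Min/+ tissue can mix adenoma with normal mucosa.

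Class II molecules are pairs of an alpha and a beta chain that show peptides from engulfed or internalised protein to CD4 T cells. In the endoplasmic reticulum the invariant chain fills the groove of a new pair and guides it to endosomes, where H2-DM exchanges the last fragment of that chain for peptide and H2-O holds H2-DM back. Dendritic cells and B cells express class II chains at all times, H2-O is found mainly in B cells, and interferon gamma can raise class II expression in macrophages and induce it in enterocytes of the small intestine. Ciita, a coactivator that binds no DNA itself, acts through factors bound at the X and Y boxes of class II promoters.

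Values are log2 signals scaled so that 0 stands for the 75th percentile of each array. Levels of different probes cannot be set against each other. All 8 enterocyte markers listed for the tissue check, among them Vil1 and Fabp2, were well above background on every array. The Y-linked transcripts Ddx3y, Eif2s3y and Uty were high in all 4 male samples and also in the library labelled Control female 1, where Ddx3y measured -0.46, against -1.04 to -0.67 in males and -7.56 to -6.91 in the other females. It stayed among the control females here. The sex differences of the 9 tested genes of the list of 10 are repeated without it. Those of all other genes and lists over both diets are given only with it. The direction of each sex difference rests on the labels. Control female 2 stood apart from the other arrays, with 75.7% of probes well above background against 55.1% to 61.9% on the others. Whether the arrays of a group came from separate animals is not stated, so the p-values reflect array-to-array spread that may be technical, and the number of arrays limits the precision.

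The class II chains, the invariant chain and the expressed H2-DM genes were lower on female than on male arrays. The log2 differences of these 6 genes lay between -1.43 and -0.62, which is 1.54-fold to 2.70-fold lower. None passed an adjusted p of 0.05 by limma over all genes (adjusted p = 0.905 for each). Of the 9 tested genes, 6 were lower and 0 higher at an unadjusted p under 0.05, where 1.19% of all genes tested were lower and 2.66% higher. At an adjusted p, 0% of all genes passed. The 9 tested genes had a median difference of -0.78, against 0.075 over all genes.

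H2-Aa, the alpha chain of the I-A molecule, measured 2.18 and 2.91 on the Western-diet female arrays and 2.97 and 2.13 on the control female arrays, the higher of them from the library labelled Control female 1. It measured 4.34 and 3.33 on the Western-diet male arrays and 3.86 and 4.38 on the control male arrays. Each female array lay below each male array. The means were 2.55 ± 0.45 in females and 3.98 ± 0.49 in males (SD, n = 4), a log2 difference of -1.43 ± 0.35 SE.

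H2-Ab1, the beta chain that pairs with H2-Aa, measured 6.54 and 6.69 on the Western-diet female arrays, 7.29 in the library labelled Control female 1 and 6.51 on Control female 2. On the male arrays it measured 7.73 and 7.44 with the Western diet and 7.27 and 7.71 with the control diet. The sexes overlapped by 1 array, the library labelled Control female 1. The difference was -0.78 ± 0.23 SE. A second H2-Ab1 probe measured 6.46 to 6.98 in females and 7.21 to 7.81 in males, without overlap.

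H2-Eb1, the beta chain of the I-E molecule, measured 6.43 and 6.63 on the Western-diet female arrays, 6.86 in the library labelled Control female 1 and 6.25 on Control female 2, against 7.19, 7.16, 6.91 and 7.39 on the male arrays. The female arrays were all lower, by -0.62 ± 0.21 SE. Mice of the C57BL/6 background have a defective H2-Ea gene, so this beta chain is transcribed without its surface partner. H2-Eb2, a related beta chain gene, was well above background on 2 of 8 arrays, Western female 1 (-3.65) and Western male 1 (-5.07), with a difference of 0.23 ± 0.74 SE for sex and 1.46 ± 0.74 SE for diet.

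The RefSeq promoter windows of H2-Eb1 and H2-Aa (build GRCm38.p6, 250 bases before to 50 after the gene's start, written 5′ to 3′ on the gene's strand) are shown because Ciita acts through the boxes they can hold. Capitals mark each match to the X box letters (AG, any pair of bases, AC, any pair of bases, ATG) and to CCAAT, the core of the Y box, on either strand (ATTGG on the other strand).
H2-Eb1 (chr17:34305617-34305916, plus strand): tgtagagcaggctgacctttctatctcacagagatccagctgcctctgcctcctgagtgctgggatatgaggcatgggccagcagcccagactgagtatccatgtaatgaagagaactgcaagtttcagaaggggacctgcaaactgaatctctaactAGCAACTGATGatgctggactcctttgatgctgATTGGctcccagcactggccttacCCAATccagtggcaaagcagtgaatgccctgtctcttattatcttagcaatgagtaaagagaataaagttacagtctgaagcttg
H2-Aa (chr17:34287774-34288073, minus strand): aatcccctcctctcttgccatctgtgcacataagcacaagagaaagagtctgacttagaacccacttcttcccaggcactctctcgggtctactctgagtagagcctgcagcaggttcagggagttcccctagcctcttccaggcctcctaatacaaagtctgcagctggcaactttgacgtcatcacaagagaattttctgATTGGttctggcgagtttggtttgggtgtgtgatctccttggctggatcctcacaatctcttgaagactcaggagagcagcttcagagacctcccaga
The H2-Eb1 window holds the X box letters, at -92 from the start, and ATTGG 22 bases after their end, with a further CCAAT nearer the start. The H2-Aa window holds ATTGG at -48 and no match to the X box letters. Only these fixed letters were searched, so a window without a match can still hold an X box that departs from them. The X box letters were found in 3.09% of all 32851 windows, CCAAT in 37.4%, the longer Y box letters CTGATTGG in 4.1%, and an X box followed by ATTGG at a gap of 11 to 40 bases in 31 windows (0.0944%). CTGATTGG contains the reverse of CCAAT, so these matches overlap.

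Cd74, whose protein is the invariant chain, measured 4.77 and 5.03 on the Western-diet female arrays, 5.37 in the library labelled Control female 1 and 4.59 on Control female 2. The male arrays measured 6.17 and 5.55 with the Western diet and 5.62 and 6.29 with the control diet. The sexes did not overlap, with a difference of -0.97 ± 0.28 SE.

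**Figure D1:**
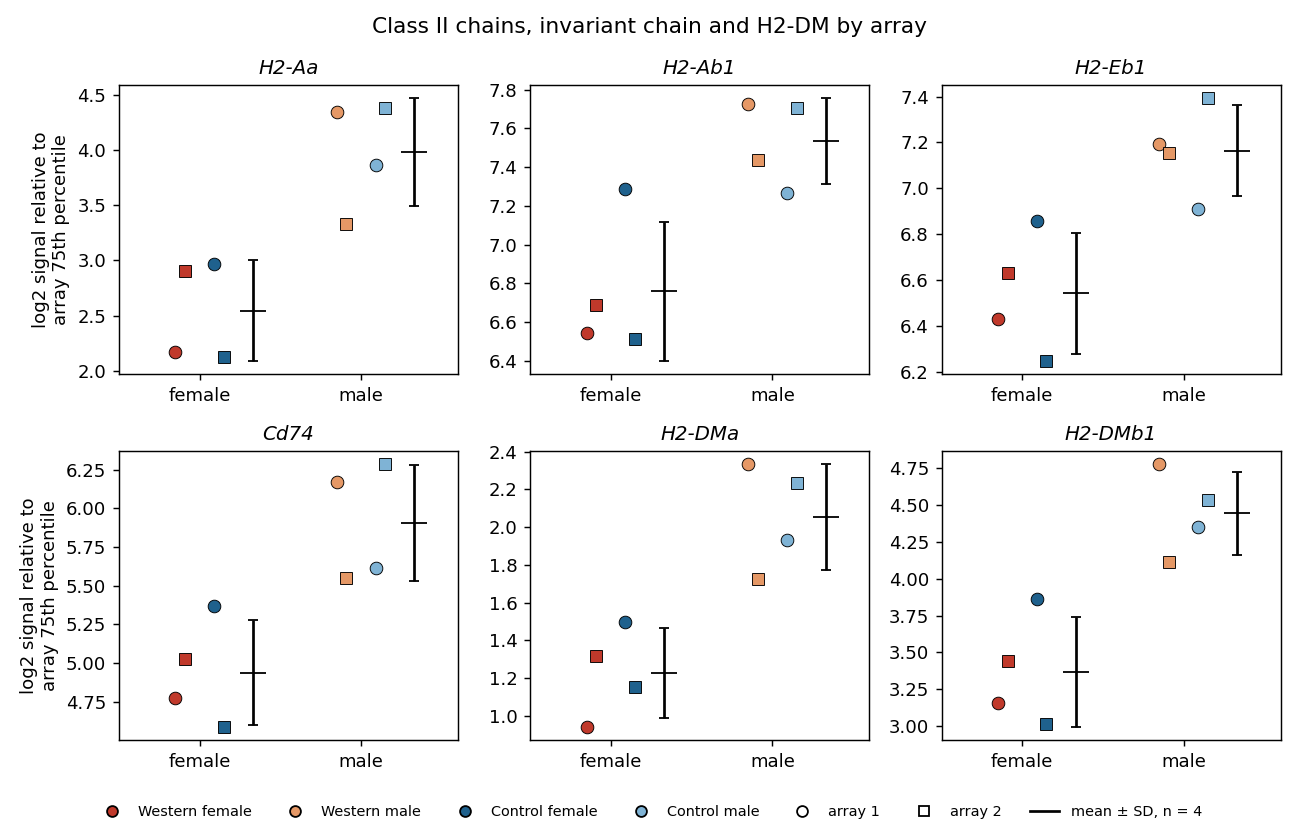
Log2 signal relative to the array's 75th percentile (vertical axis) of 6 class II genes on each array, females left of males. Colours give diet and sex, circles and squares the first and second array of a group, and bars the mean ± SD over 4 arrays. The female arrays lie below the male arrays except for the overlap of 1 array in H2-Ab1.

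H2-DM is a pair of H2-DMa with a DM beta chain. H2-DMa measured 0.94 and 1.32 on the Western-diet female arrays, 1.497 in the library labelled Control female 1 and 1.15 on Control female 2, against 2.33, 1.72, 1.93 and 2.23 on the male arrays. Its difference was -0.83 ± 0.21 SE, without overlap. H2-DMb1, a beta chain of H2-DM, measured 3.15 and 3.44 on the Western-diet female arrays, 3.86 in the library labelled Control female 1 and 3.01 on Control female 2, against 4.78, 4.12, 4.35 and 4.53 on the male arrays. Its difference was -1.08 ± 0.26 SE, again without overlap.

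H2-DMb2 encodes a second DM beta chain from a neighbouring gene copy. Its probe was well above background on 1 of 8 arrays, Western female 1, where it measured -4.86, against -7.71 to -6.37 on the other 7 arrays. It was not tested. Probes of such close copies can bind each other's RNA, and probe sequences were not used here. With 1 of 8 arrays well above background, the H2-DMb2 probe gave no order of arrays to set beside that of H2-DMb1. The promoter windows of both copies are shown for the boxes they hold (capitals as above).
H2-DMb1 (chr17:34152941-34153240, plus strand): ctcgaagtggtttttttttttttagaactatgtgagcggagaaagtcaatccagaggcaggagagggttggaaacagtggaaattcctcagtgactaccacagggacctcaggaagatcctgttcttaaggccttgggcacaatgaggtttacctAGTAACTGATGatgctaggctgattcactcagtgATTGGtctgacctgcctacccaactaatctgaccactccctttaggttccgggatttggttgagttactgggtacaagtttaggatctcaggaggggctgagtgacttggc
H2-DMb2 (chr17:34144999-34145298, plus strand): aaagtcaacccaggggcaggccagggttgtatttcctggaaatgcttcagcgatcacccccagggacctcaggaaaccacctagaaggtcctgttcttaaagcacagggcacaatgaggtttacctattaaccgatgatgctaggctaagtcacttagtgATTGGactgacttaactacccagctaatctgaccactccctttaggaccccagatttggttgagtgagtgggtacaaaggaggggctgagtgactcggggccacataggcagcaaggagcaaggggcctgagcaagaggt
Over 247 aligned bases the windows were 84.2% identical. The H2-DMb1 window holds the X box letters at -95, with ATTGG 23 bases after their end. The H2-DMb2 window holds ATTGG at -90 and no match to the X box letters, with the same limit of fixed letters.

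By array, the 6 genes kept a similar order. Western male 1 was the highest of all arrays for 3 of them and Control male 2 for the other 3. Control female 2 was the lowest for 5 and Western female 1 for 1, H2-DMa. The library labelled Control female 1 was the highest female array for all 6. Of the 9 tested genes, 5 were lower in females without overlap, where 1.03% of all genes were. Without the library labelled Control female 1, 6 of 9 were, where 2.05% of all genes were, and the differences were then -1.64 (H2-Aa), -0.97 (H2-Ab1), -0.78 (H2-Eb1), -1.16 (Cd74), -0.91 (H2-DMa) and -1.29 (H2-DMb1), with adjusted p between 0.103 and 0.192 by limma. Without Control female 2, the array lowest for 5 of the 6, they were -1.22 (H2-Aa), -0.58 (H2-Ab1), -0.47 (H2-Eb1), -0.77 (Cd74), -0.74 (H2-DMa) and -0.87 (H2-DMb1), with an adjusted p of 0.998 each by limma.

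The sex difference was also measured within batches and within each diet. Slide 1 held the first array of every group, the library labelled Control female 1 included, and there the differences ran from -1.53 (H2-Aa) to -0.41 (H2-Eb1). With scan day as a block they ran from -1.47 to -0.63. On the Western diet, which leaves out both control female arrays, the 6 genes differed by -1.29 (H2-Aa), -0.96 (H2-Ab1), -0.65 (H2-Eb1), -0.96 (Cd74), -0.90 (H2-DMa) and -1.15 (H2-DMb1), with an adjusted p of 1.00 each by limma. All 6 were lower without overlap in this comparison of 2 arrays with 2, where 12.7% of all genes were. At an unadjusted p under 0.05, 4 members were lower and 1, H2-Oa, was higher, where 0.83% and 0.488% of all genes were. On the control diet the median difference of the 9 tested genes was -0.60, -0.25 within slide 1 and -1.15 within slide 3. In whole tissue, fewer cells that express these genes and less RNA per cell cannot be told apart.

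H2-O, the inhibitor of H2-DM, had differences of the opposite sign, and neither of its chains passed the test. H2-Oa, its alpha chain, measured -1.999 and -3.13 on the Western-diet female arrays and -3.38 and -3.43 on the control female arrays, against -3.36 and -4.16 on the Western-diet male arrays and -3.69 and -3.27 on the control male arrays. Western female 1 was the highest and the sexes overlapped. H2-Ob, its beta chain, measured -2.39 and -3.60 on the Western-diet female arrays and -3.49 and -3.23 on the control female arrays, against -3.59, -4.17, -3.40 and -4.17 on the male arrays. The female minus male differences were 0.64 ± 0.32 SE for H2-Oa and 0.66 ± 0.35 SE for H2-Ob (adjusted p = 0.905 each by limma).

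Without Western female 1 these differences were 0.35 for H2-Oa and 0.35 for H2-Ob, and without the library labelled Control female 1 they were 0.62 and 0.72. Within slide 1 they were 0.83 and 0.56. On the Western diet, H2-Oa differed by 1.196 ± 0.45 SE without overlap, where 12.9% of all genes were higher in this way, and H2-Ob by 0.89 ± 0.49 SE (adjusted p = 1.00 each by limma). A second H2-Ob probe, well above background on 5 arrays, also had its highest value on Western female 1 (-2.21) and lay between -6.09 and -4.43 on the others. The H2-Ob window is shown because it holds the spaced boxes of the H2-Eb1 and H2-DMb1 windows (capitals as above). The part of these boxes in the levels of the genes was not tested.
H2-Ob (chr17:34238655-34238954, plus strand): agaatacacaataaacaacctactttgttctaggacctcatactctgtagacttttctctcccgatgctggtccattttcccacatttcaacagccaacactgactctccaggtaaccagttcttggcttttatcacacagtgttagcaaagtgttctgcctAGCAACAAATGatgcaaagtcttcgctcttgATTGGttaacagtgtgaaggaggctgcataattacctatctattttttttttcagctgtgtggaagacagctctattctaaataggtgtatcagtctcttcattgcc
The X box letters lie at -88, with ATTGG 20 bases after their end. Of the 7 member genes with a window, 4 held the X box letters, 3 the spaced pair and 7 CCAAT. Of all windows, 3.09% held the X box letters, 0.0944% the spaced pair and 37.4% CCAAT. The 7 genes have 8 windows. H2-DMa counts for CCAAT through its second window, at -198, and its first window holds none. The fourth gene with X box letters, H2-Oa, has them at -141 and ATTGG at -43, outside the gap searched.

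B cells express H2-O, and Western female 1, the highest array for H2-Oa and H2-Ob, was also the highest for 4 of 8 B cell markers, with Control female 2 for the other 4. All 8 had a positive female minus male difference, where 37.7% of all genes had a negative one. Their median was 0.36, and 0 had an unadjusted p under 0.05, where 3.85% of all genes did. The summed B cell marker level, in multiples of the 75th percentile, was 2.45 on Western female 1 and 0.404 to 0.905 on the other arrays. Cd79b gave 39% to 71.3% of this sum by array. Without Cd79b the sum was 0.202 to 0.935 in females and 0.151 to 0.373 in males. Ms4a1, which encodes the B cell surface protein CD20, measured -1.37 on Western female 1 and -7.20 to -3.34 on the others. Cd79b, a chain of the B cell receptor complex, measured 0.60 there and -1.98 to -0.91 elsewhere. Cr2, the complement receptor of B and follicular dendritic cells, measured -2.005 there and -4.75 to -3.80 elsewhere. The part of B cell content in the H2-O and H2-DMb2 values was not tested.

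**Figure D2:**
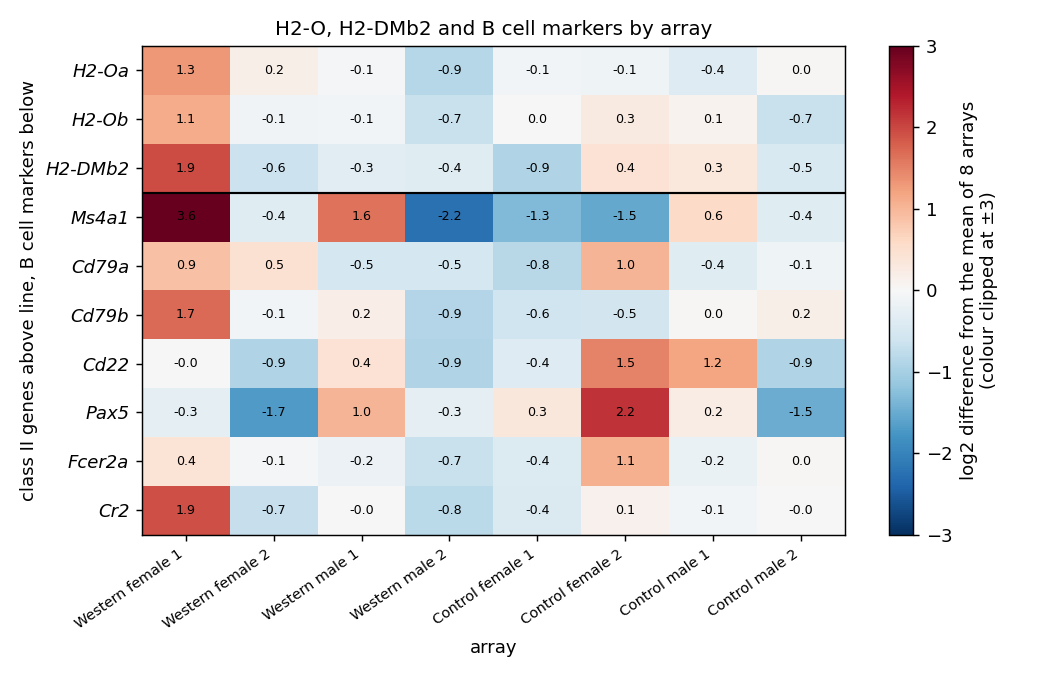
Log2 difference from the mean of 8 arrays (colour and printed value) for H2-Oa, H2-Ob and H2-DMb2 above the line and 7 B cell markers below it, one column per array. Western female 1 has the highest value of all 3 class II genes and of Ms4a1, Cd79b and Cr2, while Cd79a, Cd22, Pax5 and Fcer2a are highest on Control female 2.

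Ciita was dim. Its probe was well above background on 5 of 8 arrays, among them Control female 2, where it measured -1.57, far above the -5.32 of the library labelled Control female 1. The Western-diet female arrays measured -5.50 and -4.95, and the male arrays -4.23, -5.68, -3.24 and -5.37. The female minus male difference was 0.30 ± 0.94 SE (adjusted p = 0.975 by limma). Without Control female 2 it was -0.64, and without the library labelled Control female 1 it was 1.24. Its error is about the size of the differences of the other genes, so no order of Ciita between the sexes can be read at this signal.

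The first comparison in the design text is that of the diets. Here the 6 genes lower on female arrays differed by -0.15 to 0.00043, and the 9 tested genes by -1.21 to 0.28. Of the 9 tested genes, 0 passed by limma and 0 had an unadjusted p under 0.05, where 0 (0%) and 912 of all genes (4.28%) did, and the smallest adjusted p of any gene was 0.125. The members' adjusted p lay between 0.995 and 1.00. Their median difference was -0.084, against -0.058 over all genes. All 9 overlapped between the diets, where 2.3% of all genes were lower and 0.864% higher without overlap. Leaving out single arrays moved the median difference between -0.27, without Control female 2, and 0.099, without the library labelled Control female 1.

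H2-Aa averaged 3.19 ± 0.90 on the Western diet and 3.33 ± 0.99 on the control diet (SD, n = 4), a difference of -0.15 with a 95% interval of -0.996 to 0.70. Cd74 averaged 5.38 ± 0.62 on the Western diet and 5.47 ± 0.70 on the control diet, a difference of -0.084 with an interval of -0.77 to 0.60. The intervals were -0.66 to 0.47 for H2-Ab1, -0.51 to 0.51 for H2-Eb1, -0.65 to 0.40 for H2-DMa and -0.71 to 0.57 for H2-DMb1. Such intervals leave room for diet differences of these genes in either direction. H2-Oa differed by 0.28 ± 0.32 SE, H2-Ob by 0.13 ± 0.35 SE and Ciita by -1.21 ± 0.94 SE. Ciita averaged -5.09 ± 0.65 on the Western diet and -3.88 ± 1.83 on the control diet, and without Control female 2 its diet difference was -0.27.

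**Figure D3:**
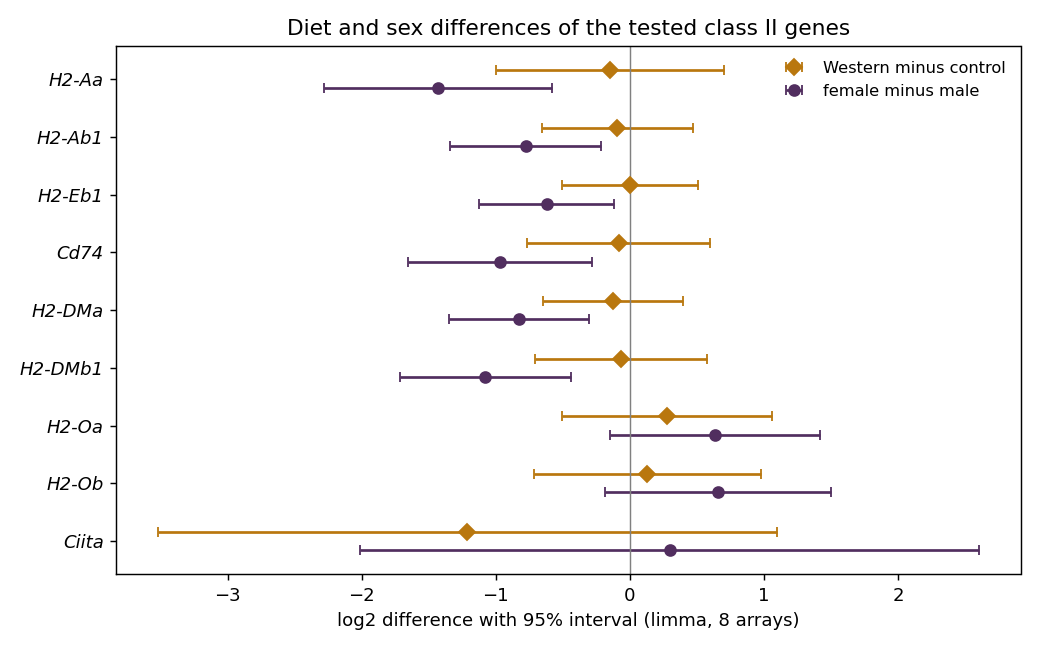
Log2 differences (horizontal axis) of the 9 tested class II genes with 95% intervals from limma over 8 arrays, Western minus control diet as diamonds and female minus male as circles. The diet intervals all include 0, while the sex intervals of H2-Aa, H2-Ab1, H2-Eb1, Cd74, H2-DMa and H2-DMb1 lie below 0 before adjustment over all genes.

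The diet effect was also compared between the sexes. The median member difference was -0.078 in females and -0.090 in males. The value in females was 0.28 without the library labelled Control female 1 and -0.37 without Control female 2, and the value in males was -0.39 without Western male 1 and 0.22 without Western male 2. Of the differences between the diet effects, female minus male, H2-Oa had 1.12 ± 0.64 SE, Cd74 0.013 ± 0.56 SE and H2-Aa 0.28 ± 0.69 SE. None passed by limma (adjusted p = 1.00 each), and no member had an unadjusted p under 0.05, where 1.62% of all genes did. Within males alone, where the control female arrays play no part, the differences ran from -0.65 (Ciita) to 0.095 (H2-Ab1).

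The factors that drive class II transcription were measured for 13 of 14 genes, and 0 passed by limma for diet or sex. For sex, 1 had an unadjusted p under 0.05, where 3.85% of all genes did. Ifngr1, a chain of the interferon gamma receptor, differed by -0.29 ± 0.14 SE and Creb1, a factor bound at class II promoters, by -0.19 ± 0.14 SE. For diet 0 had an unadjusted p under 0.05, where 4.28% of all genes did. Nfya, a subunit of the factor that binds the Y box, differed by 0.32 ± 0.19 SE for diet. The list's median was -0.054 for sex and 0.078 for diet. None of the 13 genes separated the sexes without overlap, where 1.03% of all genes were lower in females in this way. Ifng itself was well above background on 2 arrays.

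Enzymes of antigen processing were measured for 7 of 7 genes. None passed or had an unadjusted p under 0.05 for either comparison, and none separated the sexes. Of all genes, 3.85% had such a p for sex and 4.28% for diet, and 1.03% were lower in females without overlap. Ctss, the protease that trims the invariant chain, differed by -0.11 ± 0.15 SE for sex and 0.28 ± 0.15 SE for diet, and the thiol reductase gene Ifi30 by 0.20 ± 0.16 SE and -0.18 ± 0.16 SE. The endosomal proteases Ctsl and Lgmn had 0.36 ± 0.15 SE for diet and -0.27 ± 0.17 SE for sex. The list's median was 0.0080 for sex and -0.087 for diet. Among the 7 genes of turnover and costimulation, 0 had an unadjusted p under 0.05 for either, beside the same shares of all genes. Lag3, a class II receptor on T cells, differed by -0.46 ± 0.21 SE for sex and the costimulator Cd86 by -0.32 ± 0.21 SE. Marchf8, a ubiquitin ligase gene of the family that removes class II from the surface, differed by 0.28 ± 0.17 SE for diet.

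Summed signals of markers of cells that the tissue could hold overlapped between the sexes in each of 8 lists. A sum weighs its probes by their brightness, so bright probes set much of it. The summed level of the 6 of 8 dendritic cell markers measured was 0.728 to 1.04 in females and 0.733 to 0.967 in males. For 7 of 9 macrophage markers it was 38.4 to 63.4 in females and 44.8 to 54.3 in males, for 8 of 8 B cell markers 0.512 to 2.45 in females and 0.404 to 0.905 in males, and for 6 of 7 T cell markers 4.66 to 6.44 in females and 4.51 to 6.87 in males. For 8 of 8 enterocyte markers it was 1477 to 1990 in females and 1577 to 2054 in males. For 4 of 4 plasma cell markers it was 26.8 to 64.2 in females and 32.7 to 72.3 in males, for 3 of 5 markers of group 3 innate lymphoid cells 1.77 to 2.55 in females and 1.85 to 3.25 in males, and for 6 of 6 smooth muscle markers 10.3 to 20.5 in females and 6.13 to 48.2 in males, the highest on Control male 1. Itgam gave 72.3% to 90.9% of the macrophage sum by array and Jchain 68.1% to 84.4% of the plasma cell sum. Without Itgam the macrophage sum was 5.77 to 10.6 in females and 6.92 to 9.6 in males, and without Jchain the plasma cell sum was 7.58 to 11.7 in females and 8.97 to 13.8 in males. By gene, 5 of the 7 macrophage markers, 4 of the 4 plasma cell markers and 5 of the 6 T cell markers had a negative female minus male difference. Their medians were -0.041, -0.38 and -0.28. In the remaining lists, the difference was negative for 5 of 8 enterocyte, 4 of 6 smooth muscle and 3 of 6 dendritic cell markers. It was negative for 1 of 3 markers of group 3 innate lymphoid cells and 0 of 8 B cell markers. Of all genes, 37.7% had a negative difference. No single marker of these lists separated the sexes without overlap, where 1.03% of all genes were lower in females in this way. Mrc1, a macrophage mannose receptor, was the 1 marker of these lists with an unadjusted p under 0.05 for sex. Of all genes, 3.85% had such a p. Mrc1 was lower in females, with a difference of -0.64 ± 0.21 SE (adjusted p = 0.905 by limma), and its part in the class II values was not tested. Cd163 and Il23r were well above background on 0 arrays and Xcr1 and Ncr1 on 1 each.

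Genes whose pattern over the 8 arrays was most like the mean of H2-Aa, H2-Ab1, H2-Eb1 and Cd74 were sought among 12393 genes with a symbol and well above background on every array. The 4 named here were Slc7a5, a transporter of large amino acids (Pearson r = 0.973), Slc51a, a subunit of the transporter that exports bile acids from enterocytes (0.973), Tmem184c (0.965) and Tbc1d9 (0.934). These are among the highest of many correlations over 8 arrays that share their labels, given as a description. The genes were picked for likeness to genes lower in females, so their own lower female values follow from the choice and are no further result. Slc51a measured 5.61 and 5.79 on the Western-diet female arrays, 5.92 in the library labelled Control female 1 and 5.53 on Control female 2, against 6.09, 5.94, 6.04 and 6.12 on the male arrays. All its female values were lower, by -0.33 ± 0.16 SE. The sex differences of the others were -0.58 (Slc7a5), -0.52 (Tmem184c) and -0.40 (Tbc1d9), with an adjusted p of 0.905 each by limma.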

How the data were processed

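RNA from 8 samples was hybridised to 8 single-colour Cy3 arrays, grouped by the diet and sex in their titles. Each deposited file is Agilent output made with Feature Extraction 10.7.3.1 on design 026655, as the file headers record. The deposited intensity used here, the processed signal, had background subtracted by the scanner software, per the file headers, and no normalization between arrays is recorded. The 1377 control spots and 94 to 216 outlier-flagged spots per array were dropped, repeated spots of a probe were averaged, and log2 values were taken relative to the 75th percentile of all non-control spots. Accessions were matched, without versions, to a RefSeq table (GRCm38.p6), which named 26412 of 39429 probes. The array headers name another build (mm9), so coordinates are given only for RefSeq promoter windows. A probe had to be well above background on 2 or more arrays, and the probe with the highest mean stood for its gene. The 4 group means were estimated over all 8 arrays by limma 3.58.1, run in R 4.3.3 (prior degrees of freedom 2.01, residual 4), and p-values were adjusted by Benjamini-Hochberg over 21319 genes, with a threshold of 0.05.

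Errors of differences are standard errors. The fit was tested on simulated data. Alternatives were other scalings, background correction (on the median spot signal, as the files hold no mean signal), filters, probe averaging, batch blocks and single arrays left out. The female minus male contrasts within each diet were added after the values were seen. The members and lists were chosen with earlier results of these data known. All members are named, and from each other list up to 3 genes with the smallest p per comparison; markers named by array were chosen after their values were seen. Replicate numbers are shared between groups, but deviations of same-numbered arrays correlated between -0.12 and 0.35 over the 6 pairs of groups, so the numbers were not treated as pairs. H2-Ea was not analysed here, and some genes that the naming rule picks are not reported here.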

Additional observations from a re-analysis of the deposited data

Results flagged for a closer look

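Among the female arrays, the Ciita value of Control female 2 (-1.57) lay apart from the other 3, with a gap to the nearest of them of 0.860 of the group's range, above Dixon's critical value for 4 arrays. This was 1 flag among 36 groups of 4 arrays examined, and chance flags about 1 in 20. Control female 2 was also the array with the most probes well above background (75.7%), and the part of that in the Ciita value was not tested.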

How the results depend on the processing

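The lower level in females of H2-Aa, H2-Ab1, H2-Eb1, Cd74, H2-DMa and H2-DMb1 kept its direction under all 18 alternatives run on each, within -1.72 to -1.18 for H2-Aa and -0.89 to -0.41 for H2-Eb1. It passed an adjusted p of 0.05 once, for H2-Aa with the array median as scale (-1.70, adjusted p = 0.0363 by limma, over a range of 0.0363 to 1.00). That scale moved the median of all genes to 0.34 for diet and -0.19 for sex, against -0.058 and 0.075, and the prior degrees of freedom to 3352, against 2.01. Under it 123 genes passed for diet, 56 for diet in males, 115 for diet in females, 216 for sex, 66 for the difference in diet effect, 45 for sex on the Western diet and 220 for sex on the control diet, where 0 passed with the 75th percentile over all 8 arrays. The members' median was then 0.32 for diet, 0.57 for diet in females, 0.46 for the difference in diet effect and -1.12 for sex on the control diet, and the diet difference was 0.25 for H2-Aa, 0.31 for H2-Ab1, 0.32 for Cd74, 0.27 for H2-DMa and 0.33 for H2-DMb1. With slide as a block the members' median was 0.24 for diet in males and -1.26 for sex on the Western diet, and H2-Aa had 0.14, Cd74 0.083, H2-DMa 0.056 and H2-DMb1 0.066 for diet and Ciita -0.25 for sex. Within slide 1 the median was 0.40 for diet in males, -0.56 for diet in females, -0.96 for the difference in diet effect, -1.27 for sex on the Western diet and -0.25 for sex on the control diet, with H2-Eb1 at -0.072 for diet and Ciita at -1.67 for sex. Within slide 3 it was 0.29 for diet in females and -1.15 for sex on the control diet. For diet, H2-Ab1 had 0.0016 as the mean of its probes, H2-Eb1 -0.023 with quantile normalization and -0.019 with normexp, and H2-Ob -0.013 with scan day as a block. Ciita had 0.076 for sex on the Western diet with normexp.

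Leaving out single arrays, 0 to 3 genes passed for sex, 0 to 2 for the difference in diet effect, 0 to 2 for sex on the Western diet, 0 to 319 for sex on the control diet and 0 to 396 for diet in females. Each count was highest without the library labelled Control female 1, tied at 2 without Control female 2 for sex on the Western diet, and 2 genes passed for diet in females without Control female 2. The members' median ran from -0.27 to 0.099 for diet, -0.39 to 0.22 for diet in males, -0.37 to 0.28 for diet in females, -0.32 to 0.28 for the difference in diet effect and -0.93 to -0.37 for sex on the control diet. The diet difference ran from -0.40 to 0.10 for H2-Aa, -0.29 to 0.099 for H2-Ab1, -0.15 to 0.15 for H2-Eb1, -0.28 to 0.11 for Cd74, -0.28 to 0.028 for H2-DMa, -0.28 to 0.14 for H2-DMb1, -0.0068 to 0.56 for H2-Oa and -0.17 to 0.43 for H2-Ob. Ciita ran from -0.64 to 1.24 for sex and -0.99 to 0.46 for sex on the Western diet. With the replicate number as a block, which labels share without marking pairs, 0 genes passed in each comparison and the members' median stayed at -0.78 for sex and -0.084 for diet. Without the library labelled Control female 1, the control females were Control female 2 alone, the array that stood apart from the others. The cause of these changes was not tested. H2-DMb2, Ciita and H2-Eb2 lie near background, which limits their values.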
